A study of Homo sapiens with 6 samples.

Results

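The genes described here encode polycomb repressive complex 2 (PRC2): the core subunits EZH1, EZH2, SUZ12, EED, RBBP4 and RBBP7 and the cofactors JARID2, AEBP2, PHF1 and MTF2. They were chosen by symbol, as known subunits of the complex, with earlier results of these data known. They make up 10 of the 53715 genes counted. All 10 passed the filter on low counts that left 19156 genes for testing. The cells were H9, an established line of human embryonic stem cells kept in the primed state, which resembles the epiblast around implantation. The study altered LINE1 (L1), a transposable element present in many genomic copies, with transfected oligonucleotides. The groups were ASO-L1, an antisense oligo against L1; sO-L1, the L1 sense oligo; and ASO-Ctr, an antisense oligo with no target. Each group had 2 libraries, from cells given 25 nM of a fluorescein-tagged oligo, sorted for the tag and collected 48 hours later. Cells of all 3 groups also received 0.7 uM ISRIB, which blocks the integrated stress response, with 5 uM of the caspase inhibitor emricasan and 10 uM of the ROCK inhibitor Y-27632, and these additions were taken away after 24 hours. Which medium the cells were in when collected is unclear, since the labels give both mTeSR and RSeT. All libraries come from this 1 line, and the labels do not say whether the paired libraries came from separate cultures, so p-values measure only the spread between these libraries.

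PRC2 methylates lysine residues of histone H3 (the H3K27 mark), which is associated with silenced developmental genes. EZH2 or its paralog EZH1 supplies the methyltransferase activity and works only together with SUZ12 and EED, while RBBP4 and RBBP7 bind histones and also serve other chromatin complexes. The cofactors join the core in alternative assemblies: JARID2 and AEBP2 in one, and a Polycomb-like protein such as PHF1, MTF2 or PHF19 in the other. In embryonic stem cells the complex is best known for holding lineage regulators inactive.

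The cell label was checked against markers. All 10 pluripotency markers, POU5F1, SOX2 and NANOG among them, were detected, and their summed level was 10475 to 10514 CPM (counts scaled to the library total) in ASO-L1 libraries, 10622 to 11023 in sO-L1 libraries and 10335 to 10857 in ASO-Ctr libraries. The naive-state markers summed to 9.16 to 11.3 CPM over the 6 libraries, against 1791 to 1880 CPM for the primed-state markers, and the 8-cell-like markers LEUTX and DUXA had no count. Library totals were 46223290 and 57899009 counts in ASO-L1, 34665403 and 60999413 counts in sO-L1 and 18897936 and 67192937 counts in ASO-Ctr, for replicates 1 and 2 of each. The ASO-Ctr replicate 1 library was therefore the shallowest, yet its lowest member count was 587, for EZH1.

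Differences were tested with edgeR's quasi-likelihood test on raw counts, with a block for the replicate number and Benjamini-Hochberg adjustment over all 19156 genes. A gene with an adjusted p under 0.05 was called. Without the block the spread between libraries was estimated much larger, with a biological coefficient of variation of 0.0834 against 0.0354 with it, so the adjusted p without the block is given beside each call. Levels are CPM after TMM scaling, and fold changes are log2 values with their standard error (SE). In bulk RNA, fewer cells of a type and less RNA per cell cannot be told apart. Single markers moved although the marker sums were near equal. By edgeR, SOX2 rose and NANOG and DNMT3B fell in both comparisons of ASO-L1, and L1TD1 was lower in ASO-L1 than in sO-L1. L1TD1 was not called in ASO-L1 against ASO-Ctr (-0.06 ± 0.05, adjusted p = 0.447 by edgeR). It was higher in sO-L1 than in ASO-Ctr, by 0.18 ± 0.05 (adjusted p = 0.0308 by edgeR, 0.9999 without the block). Of the 5 primed-state markers with counts, OTX2 and ZIC2 rose and SFRP2 and DUSP6 fell in both comparisons, and THY1 fell against ASO-Ctr. The calls were 4 of 10 pluripotency and 4 of 5 primed-state markers against sO-L1, where 23.0% of all genes tested were called. Against ASO-Ctr they were 3 of 10 and 5 of 5, where 21.5% of all genes tested were called. OTX2 moved most, by 0.49 ± 0.05 against sO-L1 (adjusted p = 3.4e-11, 0.154 without the block) and 0.50 ± 0.05 against ASO-Ctr (adjusted p = 3.2e-11, 0.143 without the block). Of the 3 naive-state markers tested, KLF5, at 1.01 to 2.15 CPM, rose against sO-L1 by 0.62 ± 0.21 (adjusted p = 0.0252 by edgeR, 0.194 without the block). Against ASO-Ctr KLF5 rose by 0.72 ± 0.22 (adjusted p = 0.0133 by edgeR, 0.133 without the block). SUSD2 and TFCP2L1 had negative log2 fold changes in both comparisons, none called. Without the block none of these markers was called. At an unadjusted p under 0.05 that fit had 4 pluripotency, 4 primed-state and 1 naive-state marker against sO-L1. The counts against ASO-Ctr were 3, 4 and 1. Their part in the PRC2 values was not tested.

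Per kilobase of exon, RBBP7 was the most abundant member and EZH1 the least in every library. RBBP7 averaged 128 CPM per kb over the 6 libraries and JARID2 84.8 CPM per kb, and their library ranges met neither each other nor those of the remaining members. EZH2 followed at 41.8 CPM per kb and MTF2 at 39.4 CPM per kb, and these neighbours overlapped between libraries. RBBP4 averaged 33.3 CPM per kb, below the lowest MTF2 library. SUZ12 at 20.3, PHF1 at 16.3, EED at 14.6 and AEBP2 at 13.05 CPM per kb formed a run in which each overlapped the next. EZH1, at 6.20 CPM per kb, lay below all of them, so the paralog known for low methyltransferase activity was also the less abundant methyltransferase transcript in these dividing cells. Exon lengths came from GENCODE v29, and 21.3% of the exon bases of RBBP4 overlap SYNC on the opposite strand. Whether reads were counted by strand is not stated, so the RBBP4 level is uncertain, as are those of RBBP7 (6.57%, TXLNG) and PHF1 (0.515%, CUTA). These are shares of exon bases, and the share of reads affected was not determined. EED shares 1.82% of its exon bases with a microRNA gene on its own strand.

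**Figure D1:**
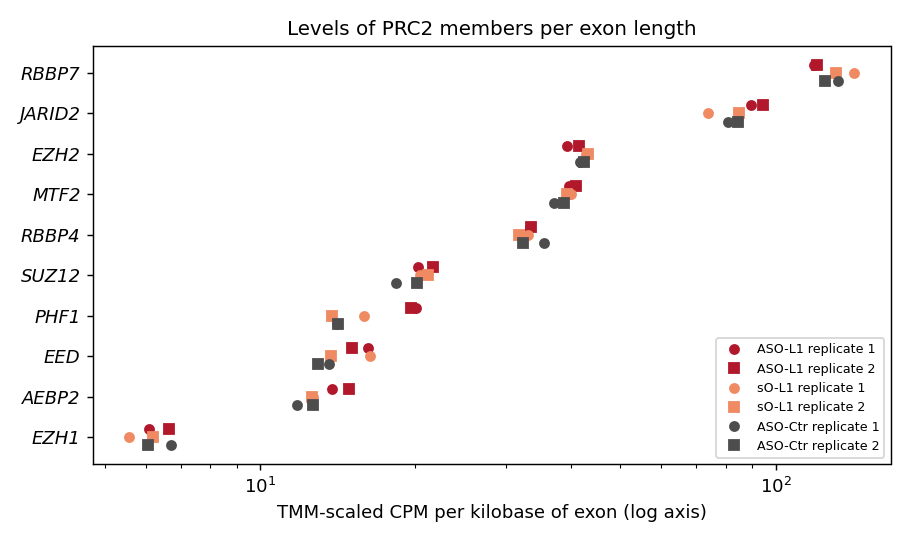
TMM-scaled CPM per kilobase of exon (log axis) of each PRC2 member, with 1 point per library, coloured by group and shaped by replicate. RBBP7 and JARID2 stand apart at the top and EZH1 at the bottom, and EZH2 and MTF2 overlap.

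In ASO-L1 against sO-L1, the cofactors PHF1, JARID2 and AEBP2 rose and the core subunit RBBP7 fell. In ASO-L1 against ASO-Ctr, PHF1, AEBP2, EED and JARID2 rose and no member fell. The methyltransferases EZH1 and EZH2, the scaffold SUZ12, RBBP4 and MTF2 passed the test in neither comparison. The counts called were 3 higher and 1 lower of 10 against sO-L1, where 23.0% of all genes tested were called (10.3% higher and 12.7% lower), and 4 higher and 0 lower of 10 against ASO-Ctr, where 21.5% were called (9.88% higher and 11.6% lower). With 10 genes, 1 member is worth 10 percentage points, and both comparisons use the same ASO-L1 libraries. Without the replicate block, 0 of 10 members were called against sO-L1 and 1 of 10 against ASO-Ctr. The shares of all genes called were then 1.84% and 1.95%. At an unadjusted p under 0.05 the edgeR fit without the block had 4 and 3 members. The share of all genes at an unadjusted p under 0.05 was not determined, so such counts, here and for the other lists, have no background. The median log2 fold change of the 10 members was 0.06 against sO-L1 and 0.10 against ASO-Ctr, with all-gene medians of -0.00 in both. The median size of change, without sign, was 0.10 and 0.11 for the members, against 0.16 for all genes in both comparisons.

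**Figure D2:**
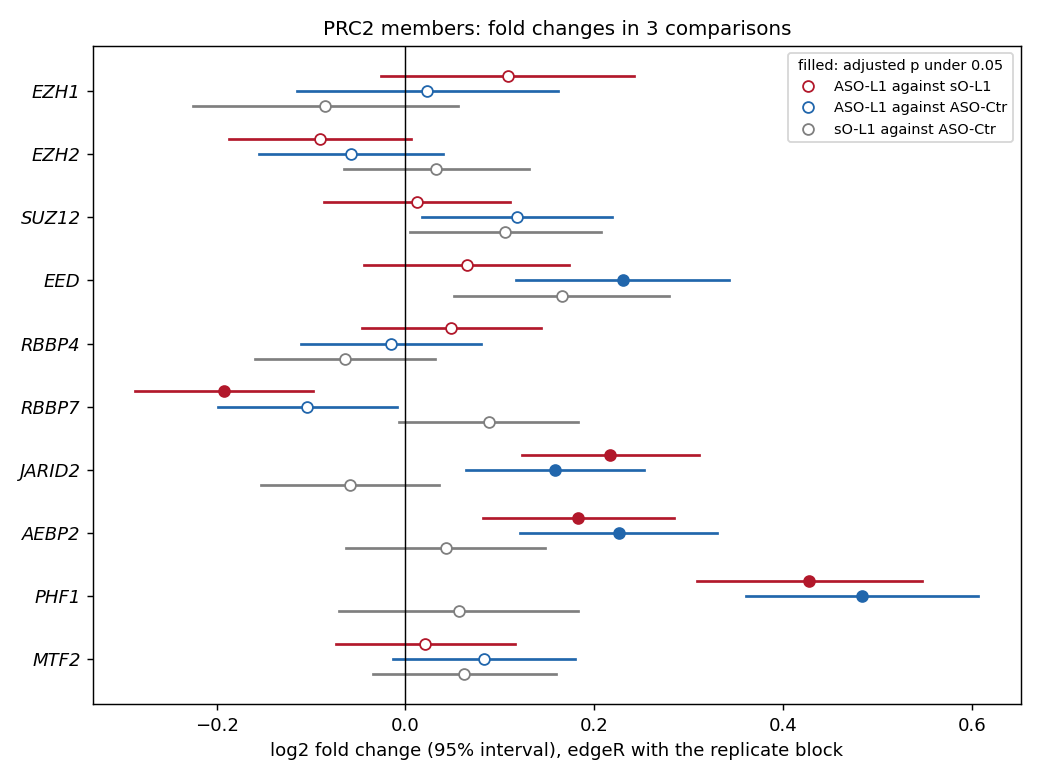
Log2 fold change of each PRC2 member with its 95% interval in the 3 comparisons, from edgeR with the replicate block. Filled circles mark an adjusted p under 0.05. PHF1 lies farthest to the right in both comparisons of ASO-L1, at 0.43 and 0.48, and every circle of sO-L1 against ASO-Ctr is open.

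EZH2, the main methyltransferase of dividing cells, had 120 and 127 CPM in ASO-L1 libraries, 131 and 132 CPM in sO-L1 libraries and 128 and 130 CPM in ASO-Ctr libraries. Both ASO-L1 libraries were below all the others, by a margin that did not pass the test. The log2 fold change was -0.09 ± 0.05 against sO-L1 (95% interval -0.19 to 0.01, adjusted p = 0.179 by edgeR's quasi-likelihood test) and -0.06 ± 0.05 against ASO-Ctr (-0.16 to 0.04, adjusted p = 0.445). As folds, these intervals run over 0.879 to 1.004 of the sO-L1 level and 0.898 to 1.03 of the ASO-Ctr level. The highest EZH2 library was 1.10 times the lowest, a ratio that MTF2 shared and that was larger for the other members, up to 1.46 for PHF1.

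EZH1, the paralog best known from non-dividing cells, had 28.2 and 30.8 CPM in ASO-L1 libraries, 25.9 and 28.7 CPM in sO-L1 libraries and 31.2 and 28.0 CPM in ASO-Ctr libraries. The groups overlapped, and the log2 fold change was 0.11 ± 0.07 against sO-L1 (-0.03 to 0.24) and 0.02 ± 0.07 against ASO-Ctr (-0.12 to 0.16). Without correction for length, which cancels between libraries, EZH1 counts were 0.234 and 0.243 of EZH2 counts in ASO-L1 libraries, 0.197 and 0.217 in sO-L1 libraries and 0.244 and 0.216 in ASO-Ctr libraries. The ASO-L1 ratios were above those of sO-L1 and within the range of ASO-Ctr.

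SUZ12, the scaffold on which the cofactors dock, averaged 94.0 ± 4.4 CPM in ASO-L1, 93.2 ± 2.4 CPM in sO-L1 and 86.4 ± 5.6 CPM in ASO-Ctr (SD, n = 2 each). Its log2 fold change was 0.01 ± 0.05 against sO-L1 (-0.09 to 0.11) and 0.12 ± 0.05 against ASO-Ctr (0.02 to 0.22, adjusted p = 0.086 by edgeR). SUZ12 shares sequence with a partial copy, SUZ12P, whose counts were 25.5% of those of SUZ12, and how the authors' counting divided reads between them is not stated. SUZ12P had 27.1 and 25.3 CPM in ASO-L1 libraries, 22.5 and 20.9 CPM in sO-L1 libraries and 20.4 and 23.5 CPM in ASO-Ctr libraries. The copy rose in ASO-L1, by 0.28 ± 0.07 against sO-L1 (adjusted p = 0.0029 by edgeR, 0.21 without the block) and by 0.22 ± 0.07 against ASO-Ctr (adjusted p = 0.0229, 0.262 without the block). The SUZ12 values are therefore uncertain.

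EED, which binds the methylated H3K27 mark and stimulates the enzyme, had 58.8 and 54.7 CPM in ASO-L1 libraries, 59.2 and 49.9 CPM in sO-L1 libraries and 49.3 and 46.9 CPM in ASO-Ctr libraries. Both ASO-L1 libraries were above both ASO-Ctr libraries and within the range of sO-L1. EED rose in ASO-L1 against ASO-Ctr by 0.23 ± 0.06, a fold of 1.17 (95% interval 1.08 to 1.27, adjusted p = 0.00176 by edgeR, 0.249 without the block). The call was lost without ASO-L1 replicate 2 (adjusted p = 0.0534) and without ASO-Ctr replicate 1 (0.0563). Against sO-L1 the log2 fold change of EED was 0.06 ± 0.05 (-0.04 to 0.17). The sO-L1 libraries themselves lay above those of ASO-Ctr, with a log2 fold change of 0.17 ± 0.06 that did not pass the test (adjusted p = 0.144).

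The histone-binding paralogs RBBP4 and RBBP7 gave different values. RBBP7 had 324 and 328 CPM in ASO-L1 libraries, 388 and 358 CPM in sO-L1 libraries and 361 and 340 CPM in ASO-Ctr libraries. ASO-L1 libraries were below all the others. RBBP7 fell against sO-L1, with a log2 fold change of -0.19 ± 0.05, or 0.875 of the sO-L1 level (95% interval 0.820 to 0.934, adjusted p = 0.00167 by edgeR, 0.228 without the block). That call was lost when either ASO-L1 replicate 1 (adjusted p = 0.185) or sO-L1 replicate 1 (0.112) was left out. Against ASO-Ctr the log2 fold change was -0.10 ± 0.05 and did not pass (adjusted p = 0.113).

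RBBP4 had 268 and 269 CPM in ASO-L1 libraries, 265 and 255 CPM in sO-L1 libraries and 285 and 260 CPM in ASO-Ctr libraries. Its log2 fold change was 0.05 ± 0.05 against sO-L1 and -0.02 ± 0.05 against ASO-Ctr. Within a library, RBBP7 counts were 1.21 and 1.22 times those of RBBP4 in ASO-L1, 1.46 and 1.40 times those of RBBP4 in sO-L1, and 1.27 and 1.31 times those of RBBP4 in ASO-Ctr. The log2 ratio averaged 0.28 ± 0.01 in ASO-L1, 0.52 ± 0.04 in sO-L1 and 0.37 ± 0.03 in ASO-Ctr (SD, n = 2 each), and no group overlapped another. By these means sO-L1 lay farther from ASO-Ctr than ASO-L1 did. The difference of this ratio between groups was not tested, and how often other gene pairs separate in this way was not determined. The RBBP4 pseudogenes in the table held few counts: RBBP4P1 had 38 and RBBP4P4 had 11 over all libraries, and adding the copies left each mean ratio within 0.01 of its value.

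**Figure D3:**
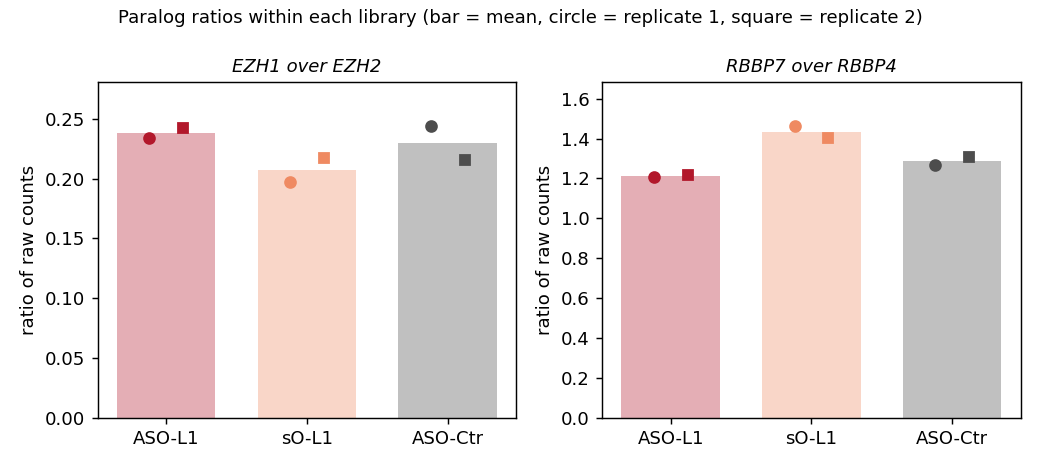
Ratio of raw counts of EZH1 over EZH2 and of RBBP7 over RBBP4 in each library, with bars at the group mean of 2 libraries. RBBP7 over RBBP4 was lowest in ASO-L1, at 1.21 and 1.22, and highest in sO-L1, at 1.46 and 1.40, while EZH1 over EZH2 overlapped between ASO-L1 and ASO-Ctr.

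The 4 cofactors had a median log2 fold change of 0.20 against sO-L1 and 0.19 against ASO-Ctr, and the 6 core subunits had 0.03 and 0.00. The difference between these classes was not tested. The promoters of the 3 cofactors that rose in both comparisons are printed here from RefSeq on GRCh38.p14, each from 250 bases before to 50 after the annotated start and on the strand of the gene. Capitals mark the motifs searched on both strands: TGACGTCA (the cAMP response element), TGATGNAAT (a stress-response element of ATF4), the box CCAAT, the Sp1-type GC box GGGCGG, the core element TATAAA, the E2F-type sequence TTTGGCGC, a further E2F-type sequence, TTTCCCGC, and the palindromic motif of NRF1. PHF1 spans chr6:33410764-33411063 (+), the JARID2 starts span chr6:15245819-15246118 (+) and chr6:15248605-15248904 (+), and AEBP2 spans chr12:19440349-19440648 (+).
PHF1: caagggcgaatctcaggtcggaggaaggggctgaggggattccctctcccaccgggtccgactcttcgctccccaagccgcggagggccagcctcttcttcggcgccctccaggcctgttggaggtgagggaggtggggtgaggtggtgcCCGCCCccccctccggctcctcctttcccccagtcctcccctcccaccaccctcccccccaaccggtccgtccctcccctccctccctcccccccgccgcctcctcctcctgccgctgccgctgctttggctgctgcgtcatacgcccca
JARID2, start 1: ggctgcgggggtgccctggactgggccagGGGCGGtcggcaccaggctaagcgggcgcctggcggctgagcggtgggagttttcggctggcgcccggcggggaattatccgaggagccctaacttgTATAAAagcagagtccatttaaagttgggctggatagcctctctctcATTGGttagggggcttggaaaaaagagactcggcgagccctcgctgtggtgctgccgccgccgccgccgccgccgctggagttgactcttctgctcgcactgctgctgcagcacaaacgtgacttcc
JARID2, start 2: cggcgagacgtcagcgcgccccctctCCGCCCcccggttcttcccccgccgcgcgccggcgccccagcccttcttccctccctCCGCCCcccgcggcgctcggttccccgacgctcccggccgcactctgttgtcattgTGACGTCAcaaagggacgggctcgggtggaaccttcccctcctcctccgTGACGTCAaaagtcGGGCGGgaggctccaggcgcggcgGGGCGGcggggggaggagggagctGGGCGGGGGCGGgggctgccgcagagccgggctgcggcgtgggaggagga
AEBP2: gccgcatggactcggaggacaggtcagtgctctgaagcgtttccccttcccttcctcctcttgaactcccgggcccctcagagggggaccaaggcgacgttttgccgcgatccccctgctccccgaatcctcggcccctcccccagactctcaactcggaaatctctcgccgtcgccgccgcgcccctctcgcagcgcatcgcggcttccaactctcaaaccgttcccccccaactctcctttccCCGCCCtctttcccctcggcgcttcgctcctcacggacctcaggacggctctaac

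All 10 members had a promoter entry, 14 entries in all, with a GC content of 52.3% to 79.3%, against a median of 58.7% over 35116 promoter entries. The GC box was found in 12 of 14 member entries and in 45.0% of all entries, and CCAAT in 8 of 14 and 34.6% of all. The 14 entries are not separate promoters. EZH2, RBBP4, RBBP7 and JARID2 each had 2, and those of RBBP4 overlap and share motif matches. The entry counts therefore give these genes more weight, and the difference from all entries was not tested. PHF1 and AEBP2 each held a single GC box and no other motif searched. The JARID2 starts differed. The first held TATAAA, found in 11.5% of all entries, with 1 CCAAT box and 1 GC box, and the other held TGACGTCA at 2 places, a motif found in 1.85% of all entries, with 6 GC boxes, of which 2 abut. TTTGGCGC was found in 1 of the 2 EZH2 entries and TTTCCCGC in entries of SUZ12 and MTF2, against 0.652% and 1.63% of all entries. TGATGNAAT and the NRF1 motif were found in no member entry, against 0.991% and 1.24% of all entries. The counts do not separate transcripts by start, so use of either JARID2 start was not measured.

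PHF1, a Polycomb-like cofactor that binds the H3K36me3 mark through its Tudor domain, had the largest log2 fold change of the 10 members in both comparisons of ASO-L1. It had 46.8 and 45.7 CPM in ASO-L1 libraries, 37.1 and 32.1 CPM in sO-L1 libraries and 32.7 and 32.9 CPM in ASO-Ctr libraries. Both ASO-L1 libraries lay well above all the others. PHF1 rose by 0.43 ± 0.06 against sO-L1, a fold of 1.35 (95% interval 1.24 to 1.46, adjusted p = 2.1e-07 by edgeR, 0.0517 without the block). Against ASO-Ctr it rose by 0.48 ± 0.06, a fold of 1.40 (1.28 to 1.52, adjusted p = 2.5e-08), and there the call held without the block (adjusted p = 0.0318). PHF1 was the only member called against ASO-Ctr in the fit without the block. It was called in 14 of 15 alternative settings against sO-L1 and in 15 of 15 against ASO-Ctr. At 6.06 kb PHF1 also has the shortest genomic span of the members, against 31.1 kb for RBBP7, the next shortest, and 317 kb for AEBP2, the longest.

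MTF2, the other Polycomb-like member and one that binds CpG-rich DNA, had 164 and 169 CPM in ASO-L1 libraries, 166 and 163 CPM in sO-L1 libraries and 154 and 160 CPM in ASO-Ctr libraries. Its log2 fold change was 0.02 ± 0.05 against sO-L1 (-0.07 to 0.12) and 0.08 ± 0.05 against ASO-Ctr (-0.01 to 0.18, adjusted p = 0.23 by edgeR). The ASO-L1 libraries were above those of ASO-Ctr by less than the test could call. The PHF1 and MTF2 intervals did not overlap in either comparison. Lower limits were 0.31 and 0.36 for PHF1, and upper limits 0.12 and 0.18 for MTF2. The intervals come from the fit with the replicate block, and the difference between these genes was not tested.

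JARID2, which helps bring the complex to chromatin, had 528 and 557 CPM in ASO-L1 libraries, 434 and 500 CPM in sO-L1 libraries and 475 and 498 CPM in ASO-Ctr libraries. Both ASO-L1 libraries were above all the others, and sO-L1 replicate 1 was the lowest. JARID2 rose by 0.22 ± 0.05 against sO-L1, a fold of 1.16 (95% interval 1.09 to 1.24, adjusted p = 0.000399 by edgeR, 0.243 without the block). Against ASO-Ctr it rose by 0.16 ± 0.05, a fold of 1.12 (1.05 to 1.19, adjusted p = 0.0106, 0.393 without the block). The call against sO-L1 was lost without sO-L1 replicate 1 (adjusted p = 0.0991), and that against ASO-Ctr without ASO-L1 replicate 1 (0.178) and without ASO-Ctr replicate 2 (0.213).

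AEBP2, a zinc finger protein that stabilises the assembly with JARID2, had 80.7 and 87.2 CPM in ASO-L1 libraries, 74.2 and 73.9 CPM in sO-L1 libraries and 69.2 and 74.2 CPM in ASO-Ctr libraries. Again both ASO-L1 libraries were the highest, and sO-L1 and ASO-Ctr overlapped. AEBP2 rose by 0.18 ± 0.05 against sO-L1, a fold of 1.14 (95% interval 1.06 to 1.22, adjusted p = 0.00569 by edgeR, 0.268 without the block), and by 0.23 ± 0.05 against ASO-Ctr, a fold of 1.17 (1.09 to 1.26, adjusted p = 0.00087, 0.176 without the block). The call against sO-L1 was lost when ASO-L1 replicate 2 was left out (adjusted p = 0.122), when sO-L1 replicate 2 was left out (0.268) and after thinning all libraries to the depth of the shallowest (0.0771).

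**Figure D4:**
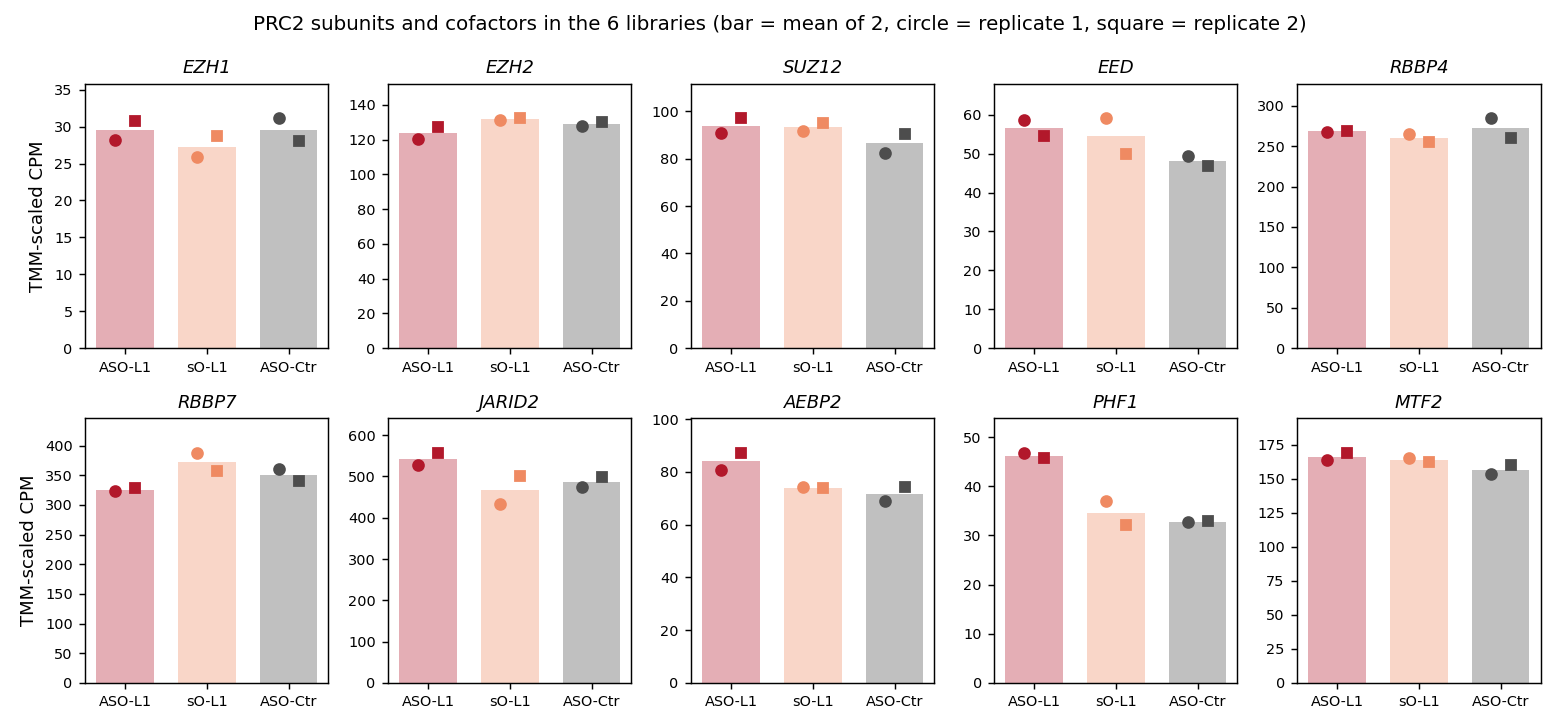
TMM-scaled CPM of each PRC2 member in the 6 libraries, with a bar at the mean of each group and axes that start at 0. ASO-L1 lies above both other groups in PHF1, JARID2 and AEBP2 and below both in RBBP7 and EZH2, of which EZH2 did not pass the test.

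Between sO-L1 and ASO-Ctr, edgeR's quasi-likelihood test called 0 of 10 members, with 1.72% of all genes called (0.658% higher and 1.06% lower). At an unadjusted p under 0.05 there were 2 members, EED and SUZ12, and 0 in the fit without the block, which called 0% of all genes. DESeq2 and limma-voom also called 0 members. The log2 fold changes ran from -0.09 ± 0.07 for EZH1 to 0.17 ± 0.06 for EED, and PHF1 had 0.06 ± 0.06 (95% interval -0.07 to 0.18). In 4 members, EZH2, SUZ12, EED and MTF2, both sO-L1 libraries were above both ASO-Ctr libraries, and the other 6 overlapped, where 14.5% of all genes were higher without overlap and 15.2% lower. Against sO-L1, ASO-L1 libraries were wholly higher in 4 members and wholly lower in 2, where 23.6% of all genes were wholly higher and 23.5% wholly lower. Against ASO-Ctr they were wholly higher in 6 members and lower in 2, where the shares of all genes were 23.8% and 24.8%.

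The authors' deposited table of ASO-L1 against sO-L1 gives the same 4 members an adjusted p below 0.05. The authors' deposited table lists log2 fold changes of 0.44 for PHF1 (adjusted p = 2.5e-06), 0.23 for JARID2 (0.000157), 0.20 for AEBP2 (0.00523) and -0.18 for RBBP7 (0.00195). Of all 16753 genes in the authors' deposited table, 23.2% are below 0.05. That table rests on the same libraries, so it is no independent evidence.

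Further PRC2 accessory genes had smaller log2 fold changes than PHF1. Of 8 symbols 6 have counts, with EPOP, an elongin-binding partner of the Polycomb-like assembly, listed as C17orf96, and EZHIP, an inhibitor of the methyltransferase, as CXorf67. CXorf67 had 16 counts over all libraries and was not tested. Of the 5 tested, 2 rose against sO-L1, where 10.3% of all genes rose, and without the block edgeR called 0, with 0 at an unadjusted p under 0.05. These were LCOR, by 0.25 ± 0.06 (adjusted p = 0.003 by edgeR, 0.367 without the block), and C10orf12, by 0.25 ± 0.09 (adjusted p = 0.0303, 0.331 without the block). These neighbouring entries together encode PALI1, a PRC2 partner, so they are not separate evidence, and in the authors' deposited table C10orf12 has an adjusted p of 0.0611.

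LCOR had 26.4 and 30.7 CPM in ASO-L1 libraries, 21.6 and 26.3 CPM in sO-L1 libraries and 25.1 and 29.3 CPM in ASO-Ctr libraries. It was lowest in sO-L1 replicate 1, and the ASO-L1 libraries were not apart from those of ASO-Ctr. Against ASO-Ctr 0 of the 5 accessory genes were called by edgeR, with 2 at an unadjusted p under 0.05, PHF19 and C17orf96. PHF19, the remaining Polycomb-like gene, had 13.8 and 13.9 CPM in ASO-L1 libraries, 11.9 and 12.6 CPM in sO-L1 libraries and 11.8 and 11.9 CPM in ASO-Ctr libraries. Its ASO-L1 libraries were the highest, yet its log2 fold changes of 0.18 ± 0.08 against sO-L1 (adjusted p = 0.123) and 0.23 ± 0.09 against ASO-Ctr (adjusted p = 0.0518) did not pass. C17orf96 had 0.16 ± 0.07 and 0.17 ± 0.08 and LCORL 0.09 ± 0.08 and 0.06 ± 0.09, none of them called.

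Of the demethylases that remove the H3K27 mark, KDM6B rose and KDM6A did not pass the test. KDM6B, an inducible enzyme, had 18.2 and 13.6 CPM in ASO-L1 libraries, 10.1 and 9.37 CPM in sO-L1 libraries and 10.8 and 8.41 CPM in ASO-Ctr libraries. Both ASO-L1 libraries were above all the others and also differed from each other. KDM6B rose by 0.68 ± 0.09 against sO-L1 (adjusted p = 4.5e-08 by edgeR, 0.0656 without the block) and by 0.73 ± 0.09 against ASO-Ctr (adjusted p = 2.4e-08, 0.0605 without the block). KDM6A, encoded on the X chromosome, had 0.06 ± 0.05 against sO-L1 and 0.05 ± 0.05 against ASO-Ctr (adjusted p = 0.447 and 0.539 by edgeR).

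**Figure D5:**
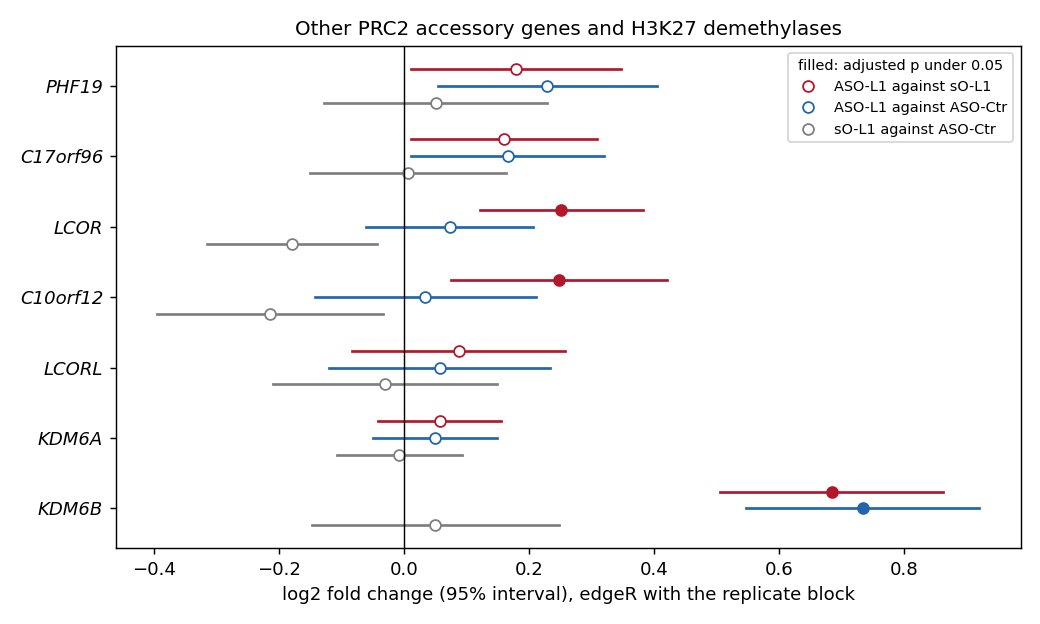
Log2 fold change with its 95% interval of 5 further PRC2 accessory genes and the 2 H3K27 demethylases in the 3 comparisons, from edgeR with the replicate block. Filled circles mark an adjusted p under 0.05. KDM6B lies near 0.68 and 0.73 in the comparisons of ASO-L1, and LCOR and C10orf12 are filled only in ASO-L1 against sO-L1.

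PRC1, the companion complex that ubiquitinates histone H2A and reads the H3K27 mark, was tested through 25 genes. Against sO-L1, 4 rose and 3 fell in ASO-L1, or 28.0% where 23.0% of all genes were called, and against ASO-Ctr 4 rose and 2 fell, or 24.0% where 21.5% were called. Both shares are near the background. Without the block edgeR called 0 of the 25 in either comparison, with 5 and 4 at an unadjusted p under 0.05. The median log2 fold change was 0.04 in both comparisons. PCGF2, a RING-finger subunit, had 68.2 and 65.6 CPM in ASO-L1 libraries and 56.3 and 53.4 CPM in sO-L1 libraries, and rose by 0.29 ± 0.06 (adjusted p = 7.7e-05 by edgeR, 0.123 without the block). CBX2, which binds the H3K27 mark, had 119 and 126 CPM in ASO-L1 libraries and 140 and 148 CPM in sO-L1 libraries, with a log2 fold change of -0.23 ± 0.05 (adjusted p = 0.000193, 0.136 without the block). BMI1, the paralog of PCGF2, rose by 0.39 ± 0.09 in ASO-L1 against ASO-Ctr (adjusted p = 0.00084 by edgeR, 0.126 without the block). These 3 genes were called in the other comparison of ASO-L1 too. BMI1 had 0.26 ± 0.08 against sO-L1 (adjusted p = 0.0186 by edgeR, 0.295 without the block). Against ASO-Ctr PCGF2 had 0.23 ± 0.06 (adjusted p = 0.00192 by edgeR, 0.186 without the block). CBX2 had -0.24 ± 0.05 there (adjusted p = 0.000199 by edgeR, 0.129 without the block). Between sO-L1 and ASO-Ctr, PHC3, a Polyhomeotic subunit, had a log2 fold change of -0.39 ± 0.09 (adjusted p = 0.00959 by edgeR, 0.9999 without the block), with 12.3 and 16.5 CPM in sO-L1 libraries and 19.4 and 19.4 CPM in ASO-Ctr libraries.

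Developmental regulators known as Polycomb targets in embryonic stem cells were mostly too low to test, with 20 of 54 passing the filter. Against sO-L1, 3 rose and 2 fell in ASO-L1, and against ASO-Ctr 2 rose and 1 fell. These are 25% and 15% of the 20, where 23.0% and 21.5% of all genes were called, so the counts are no result about these genes. Without the block FOXA2 alone was called in each comparison. FOXA2, an endoderm transcription factor, had 1.95 and 1.61 CPM in ASO-L1 libraries, 3.82 and 3.84 CPM in sO-L1 libraries and 3.66 and 3.16 CPM in ASO-Ctr libraries. Both ASO-L1 libraries were below all the others. FOXA2 had log2 fold changes of -1.13 ± 0.16 against sO-L1 (adjusted p = 3.0e-07 by edgeR, 0.0213 without the block) and -0.93 ± 0.17 against ASO-Ctr (adjusted p = 3.2e-05, 0.0428 without the block). FOXA2 is also 1 of the 5 endoderm markers, whose summed level was 2.31 to 2.94 CPM in ASO-L1 libraries, 4.44 to 5.22 CPM in sO-L1 libraries and 3.86 to 4.62 CPM in ASO-Ctr libraries. FOXA2 made up most of that sum, and the other 4 endoderm markers together had 0.708 to 0.986 CPM in ASO-L1 libraries, 0.600 to 1.41 CPM in sO-L1 libraries and 0.699 to 0.955 CPM in ASO-Ctr libraries, which overlap. FOXD3, a factor of pluripotent and neural crest cells, had -0.23 ± 0.06 against sO-L1 (adjusted p = 0.00804 by edgeR, 0.262 without the block). LHX2, a forebrain factor, had 0.43 ± 0.12 against ASO-Ctr (adjusted p = 0.00835 by edgeR, 0.391 without the block). FOXD3 was not called against ASO-Ctr (adjusted p = 0.169 by edgeR), while LHX2 was also called against sO-L1 (0.0102, 0.48 without the block). EOMES, a mesendoderm factor, had 1.496 ± 0.45 against ASO-Ctr (adjusted p = 0.0119 by edgeR, 0.251 without the block), from 133 counts over all libraries. EOMES was also called against sO-L1, by 1.13 ± 0.41 (adjusted p = 0.0406 by edgeR, 0.362 without the block), with 0.264 and 0.389 CPM in sO-L1 libraries. Its levels were 0.833 and 0.639 CPM in ASO-L1 libraries against 0 and 0.364 CPM in ASO-Ctr libraries, where 3 counts in the library at 0 would be 0.159 CPM.

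Neuroectoderm markers summed to 568 CPM in both ASO-L1 libraries, 535 to 555 CPM in sO-L1 libraries and 509 to 520 CPM in ASO-Ctr libraries. Mesoderm markers summed to 2.83 to 3.21 CPM in ASO-L1 libraries, 2.52 to 2.67 CPM in sO-L1 libraries and 2.12 to 2.91 CPM in ASO-Ctr libraries. Trophoblast markers stayed between 9.55 and 11.03 CPM, nearly all of it from KRT7, at 9.55 to 10.9 CPM and not called. CDX2, GATA3, TFAP2A and CGA had 2, 12, 21 and 1 counts over all libraries and were not tested. Fibroblast markers stayed between 379 and 399 CPM, with THY1 the main contributor, a gene that pluripotent cells also express. Within the fibroblast list COL1A1, a collagen gene singled out after its values were seen, had 77.1 and 72.4 CPM in ASO-L1 libraries, 45.6 and 51.1 CPM in sO-L1 libraries and 42.9 and 54.0 CPM in ASO-Ctr libraries. It rose by 0.63 ± 0.06 against sO-L1 (adjusted p = 3.3e-09 by edgeR, 0.029 without the block) and by 0.61 ± 0.07 against ASO-Ctr (adjusted p = 1.2e-08, 0.032 without the block). The rest of the fibroblast list did not rise with COL1A1. COL1A2 had -0.09 ± 0.05 against sO-L1 and -0.06 ± 0.05 against ASO-Ctr, neither called. THY1 had -0.05 ± 0.05 against sO-L1, not called, and -0.13 ± 0.05 against ASO-Ctr (adjusted p = 0.0421 by edgeR, 0.408 without the block). DCN and LUM had 1 and 8 counts over all libraries and were not tested. The neuroectoderm sum was higher in ASO-L1 than in either other group, but NES and TUBB3 carried nearly all of it. The other 3 markers summed to 1.69 to 3.46 CPM in ASO-L1 libraries, 1.80 to 4.81 CPM in sO-L1 libraries and 2.04 to 3.29 CPM in ASO-Ctr libraries. Of the 4 tested, none was called against sO-L1 by edgeR, with 0 at an unadjusted p under 0.05, and NES rose against ASO-Ctr by 0.17 ± 0.05 (adjusted p = 0.00569, 0.25 without the block). The part of these markers in the PRC2 values was not tested.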

How the data were processed

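Poly(A) RNA of 6 libraries was sequenced with a directional kit, per the labels' protocols. Per the submitters' processing notes, Trim Galore 0.4.0, TopHat2 2.0.13, featureCounts of Subread 1.5.0 and the build hg19 were used. The authors' deposited table holds raw counts per gene symbol, with duplicates removed according to its name and the strand setting not stated. Its header stands 1 field to the left of the values, and the columns were matched by name and checked against the authors' deposited log2 table of batch-corrected values (r 0.9969 to 0.9996 for differences within a replicate). For ASO-L1 against sO-L1 a deposited table of the authors' own test holds log2 fold changes, p-values and test scores. Of 53807 entries, 92 spike-ins were left out.

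Counts were filtered with filterByExpr (minimum count 10, minimum total 15), scaled by TMM and tested by robust quasi-likelihood in edgeR 4.0.16 (R 4.3.3) over all 6 libraries, with group and replicate number as terms. The replicate number entered because the deposited log2 table is batch-corrected. This left 2 residual degrees of freedom, with a median prior of 44.8. SEs were computed from the F statistic (size of the log2 fold change divided by its root). Named genes were the 10 members, all measured accessory and demethylase genes, copies of members with 10 or more counts, and up to 4 genes of each other list with the smallest p. The members and lists were chosen with earlier results of these data known. Exon lengths came from GENCODE v29 on GRCh38, a build other than that of the counts, so they only approximate the authors' gene models.

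On simulated data with 19156 genes, ASO-L1 against sO-L1 recovered 46% of 1.25-fold, 68% of 1.5-fold, 78% of 2-fold and 88% of 3-fold changes. There 7 unchanged genes were called. The changed genes, 50 at each fold, were drawn from all genes tested, whatever their level. In the real data a far larger share, 23.0% of genes, was called. The recovered shares therefore do not give the power for the members. The simulated counts were drawn with the replicate effect and the spread of the fit with the block. They therefore cannot show whether the block is right for the real libraries. Alternatives were scaling by upper quartile or by DESeq2 size factors, testing with DESeq2 1.42.0 or voom of limma 3.58.1, no filter or a filter of CPM above 0.5 in 2 libraries, no replicate block, the 4 libraries compared, each library left out, thinning to 18897936 counts and an adjusted p under 0.1. L1 transcripts themselves were not analysed here.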

Additional observations from a re-analysis of the deposited data

How the results depend on the processing

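The members called in ASO-L1 against sO-L1 were 4 in the reported fit, 0 without the replicate block and 2 to 4 with 1 library left out, the lowest without sO-L1 replicate 1. In ASO-L1 against ASO-Ctr they were 4, with 1 without the replicate block and 3 to 4 with 1 library left out. In sO-L1 against ASO-Ctr they were 0 under every alternative run, with 2 at an unadjusted p under 0.05 in the reported edgeR fit. For all genes, ASO-L1 against sO-L1 gave 4412 calls, 2355 with DESeq2, 352 without the replicate block and 1802 to 4702 with 1 library left out. ASO-L1 against ASO-Ctr gave 4120, 2436 with DESeq2, 374 without the replicate block and 2336 to 3693 with 1 library left out. For sO-L1 against ASO-Ctr the count was 330, with 125 by DESeq2, 168 by limma-voom, 0 without the replicate block, 516 from the 4 libraries compared, 520 at an adjusted p under 0.1, and 9 to 496 with 1 library left out.

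Of the members' log2 fold changes, none that was called changed sign. EZH1 in ASO-L1 against ASO-Ctr, 0.02 as reported and not called, was -0.033 after thinning to the shallowest library. With 1 library left out, uncalled values crossed 0. In ASO-L1 against sO-L1 the ranges were -0.0203 to 0.0411 for SUZ12, -0.0183 to 0.14 for EED, -0.0027 to 0.097 for RBBP4 and -0.0208 to 0.0597 for MTF2. In ASO-L1 against ASO-Ctr they were -0.15 to 0.14 for EZH1 and -0.0712 to 0.0373 for RBBP4. In sO-L1 against ASO-Ctr they were -0.26 to 0.0327 for EZH1, -0.13 to 0.006 for JARID2, -0.0071 to 0.11 for AEBP2 and -0.024 to 0.16 for PHF1. The cause was not tested. Where 1 library remained in a group, its spread was taken from the other groups.

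The replicate numbers are shared by all groups, but the labels do not say what a number stands for, and with 2 numbers a pairing cannot be established. Over 11073 genes with more than 100 counts in every library, the differences between replicates 1 and 2 correlated at 0.70, 0.60 and 0.69 between groups. Of these genes, 99.7% had replicate means within 0.02 in the authors' deposited log2 table, against 11.4% in log2 CPM. With 2 libraries a group, the calls of RBBP7, JARID2, AEBP2 and EED, and that of PHF1 against sO-L1, rest on the replicate block. EED had 929 counts in ASO-Ctr replicate 1, the shallowest library, and its call was lost without that library.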

Other observations

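RBBP4, RBBP7 or both also belong to the NuRD, SIN3, CAF-1, HAT1 and NURF complexes, and 23 genes of these complexes were tested. In ASO-L1 against sO-L1, 3 rose and 3 fell, with a median log2 fold change of 0.02. In ASO-L1 against ASO-Ctr, 2 rose and 2 fell, with a median of -0.01. These are 26.1% and 17.4% of the 23, where 23.0% and 21.5% of all genes were called, and without the block edgeR called 0 in both, with 2 and 1 at an unadjusted p under 0.05. GATAD2B, a NuRD subunit, had 47.6 and 50.3 CPM in ASO-L1 libraries, 37.5 and 43.0 CPM in sO-L1 libraries and 43.8 and 47.1 CPM in ASO-Ctr libraries, and rose by 0.28 ± 0.06 against sO-L1 (adjusted p = 0.000132 by edgeR, 0.161 without the block). CHAF1B, a subunit of the histone chaperone CAF-1, had 34.9 and 34.5 CPM in ASO-L1 libraries, 40.0 and 41.1 CPM in sO-L1 libraries and 41.0 and 39.6 CPM in ASO-Ctr libraries. Its log2 fold change was -0.23 ± 0.06 against sO-L1 (adjusted p = 0.00257 by edgeR, 0.174 without the block). Both ASO-L1 libraries of CHAF1B were below all the others. HDAC1, the deacetylase, rose by 0.16 ± 0.05 against ASO-Ctr (adjusted p = 0.0138 by edgeR, 0.324 without the block). SAP30 of the SIN3 complex had -0.22 ± 0.07 against sO-L1 (adjusted p = 0.0159 by edgeR, 0.369 without the block). Of these genes CHAF1B was also called lower against ASO-Ctr (adjusted p = 0.00716 by edgeR, 0.198 without the block). GATAD2B and SAP30 were not called against ASO-Ctr (adjusted p = 0.173 and 0.0627 by edgeR), nor HDAC1 against sO-L1 (0.116).

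The log2 difference of replicate 1 over replicate 2 within a group had the same sign in all 3 groups for EZH2, SUZ12, EED and JARID2. For EED it was 0.10 in ASO-L1, 0.25 in sO-L1 and 0.07 in ASO-Ctr, and for JARID2 -0.08 in ASO-L1, -0.20 in sO-L1 and -0.07 in ASO-Ctr. For PHF1 it was 0.03 in ASO-L1, 0.21 in sO-L1 and -0.01 in ASO-Ctr, so the sO-L1 libraries of this gene differed from each other more than those of the other groups.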
